A study of Homo sapiens with 6 samples.

Results

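The human mitochondrial genome is a circle of DNA with 37 genes, and these 37 genes, out of 64486 annotated genes, are described here in a 6mA-IP-seq experiment. They were chosen by symbol (MT-) and comprise 13 protein-coding, 2 rRNA and 22 tRNA genes. No measured value entered this rule, but the members were chosen with earlier results of these data known. N6-methyladenine (6mA) is adenine with a methyl group on its amino nitrogen, and 6mA-IP-seq sequences the sonicated and denatured DNA fragments that an antibody to 6mA pulls down. A peak is a stretch where those fragments are more frequent than the local background. The DNA came from MDA-MB-453, a long-established human breast cancer line, which had been transfected for 48 h with 10 nM of a scrambled siRNA (control) or of an siRNA against N6AMT1 (si-N6AMT1). N6AMT1 encodes a methyltransferase, and the study asked whether it deposits 6mA. Each group had 2 immunoprecipitated libraries and 1 input library. The siRNA is transient, the libraries come from a single cell line, and the peak lists hold no measure of the N6AMT1 level reached. The methods call the replicates biological, but no source used here says that they came from separate cultures, so p-values measure only the spread between these libraries.

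The mitochondrial genome is present in many copies per cell and encodes subunits of the respiratory chain with the rRNAs and tRNAs needed to translate them. The MT-ND genes encode subunits of complex I, MT-CYB of complex III, the MT-CO genes of complex IV (cytochrome c oxidase) and the MT-ATP genes of complex V (ATP synthase). MT-RNR1 and MT-RNR2 encode the small and the large mitochondrial rRNA. The control region between MT-TP and MT-TF holds the main promoters and the origin of heavy-strand replication. The strands differ in base composition, one being poor in guanine and the other rich in it. The reference gives the guanine-poor strand, called the plus strand here, and most genes are annotated on it.

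Each of the 4 libraries had 5 peaks on the mitochondrial genome, at the same places. To show the DNA that the results turn on, 80 bases of the plus strand are printed around the median position of each of the 5 summits, where the pileup was highest, with every G in capitals. They hold the summits of all 4 libraries, except that the MT-ND6 summit of control replicate 2, at position 14352, lies just past the stretch printed. The sequence and positions are those of the GRCh37 mitochondrial reference, M, of 16569 bases. Which mitochondrial sequence the authors aligned to is not stated, and positions could differ by up to 2 bases if it was another one in use with hg19.
Control region, chrM:457-536: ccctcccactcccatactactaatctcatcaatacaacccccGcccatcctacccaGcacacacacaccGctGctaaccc
MT-RNR2, chrM:2215-2294: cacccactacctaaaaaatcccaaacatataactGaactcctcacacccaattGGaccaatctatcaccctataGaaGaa
MT-ND2, chrM:5324-5403: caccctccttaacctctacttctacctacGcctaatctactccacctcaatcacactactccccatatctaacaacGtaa
MT-CO1, chrM:6398-6477: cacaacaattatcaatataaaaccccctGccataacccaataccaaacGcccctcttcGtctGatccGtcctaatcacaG
MT-ND6, chrM:14265-14344: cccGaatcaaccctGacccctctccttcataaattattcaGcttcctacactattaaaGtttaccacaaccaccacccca

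For contrast, the centres of the 4 uncovered stretches that lie in genes read as follows, again on the plus strand with G in capitals.
MT-RNR1, chrM:1277-1356: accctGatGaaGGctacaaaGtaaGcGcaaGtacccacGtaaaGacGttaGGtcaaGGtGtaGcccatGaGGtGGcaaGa
MT-RNR2, chrM:2766-2845: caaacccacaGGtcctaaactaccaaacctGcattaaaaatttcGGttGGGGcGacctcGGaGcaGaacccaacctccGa
MT-TY to MT-CO1, chrM:5879-5958: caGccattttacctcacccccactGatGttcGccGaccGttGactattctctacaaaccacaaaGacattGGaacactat
MT-CO1, chrM:7103-7182: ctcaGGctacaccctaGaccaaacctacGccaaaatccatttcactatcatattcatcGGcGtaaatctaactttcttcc
The summit sequences held 4, 5, 2, 6 and 4 G in the order printed, and the sequences from uncovered stretches held 23, 15, 10 and 7. No summit sequence held as many as the poorest of the uncovered ones.

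Most mitochondrial genes lay wholly inside a peak. In every library 29 of the 37 genes were covered from end to end, 5 were covered in part and 3 were not touched. The genes in each class were the same ones in the 4 libraries. Here and below, uncovered means only that no peak was called above the local background. That background was itself 865 to 1655 fragments at the mitochondrial summits. The peak lists give no pileup outside peaks, so fragments in uncovered genes and stretches need not be few. By comparison, 7 of 64449 nuclear genes (0.0109%) were covered whole in all 4 libraries. The shares are not matched for length. The median nuclear gene is 3192 bp long, whereas 17 of the 29 mitochondrial genes are tRNA genes, which are far shorter. No share was computed for nuclear genes of like length. None of the 7 nuclear genes was protein-coding and the longest was 542 bp, whereas the longest mitochondrial gene covered whole, MT-ND5, is 1812 bp. Among the 7 were MTATP8P1, MTND6P3 and MTND6P22, nuclear pseudogenes of mitochondrial genes, and MTND6P3 was the longest. Peaks covered 85.0% and 84.5% of the mitochondrial sequence in the control libraries, against 84.9% and 84.4% in the si-N6AMT1 libraries. The control mean of 84.8 ± 0.388% and the si-N6AMT1 mean of 84.7 ± 0.397% (SD, n = 2 each) differed by less than either SD (p = 0.667, exact two-sided permutation test). With 2 libraries against 2, the smallest p that this test can give is 0.333.

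**Figure D1:**
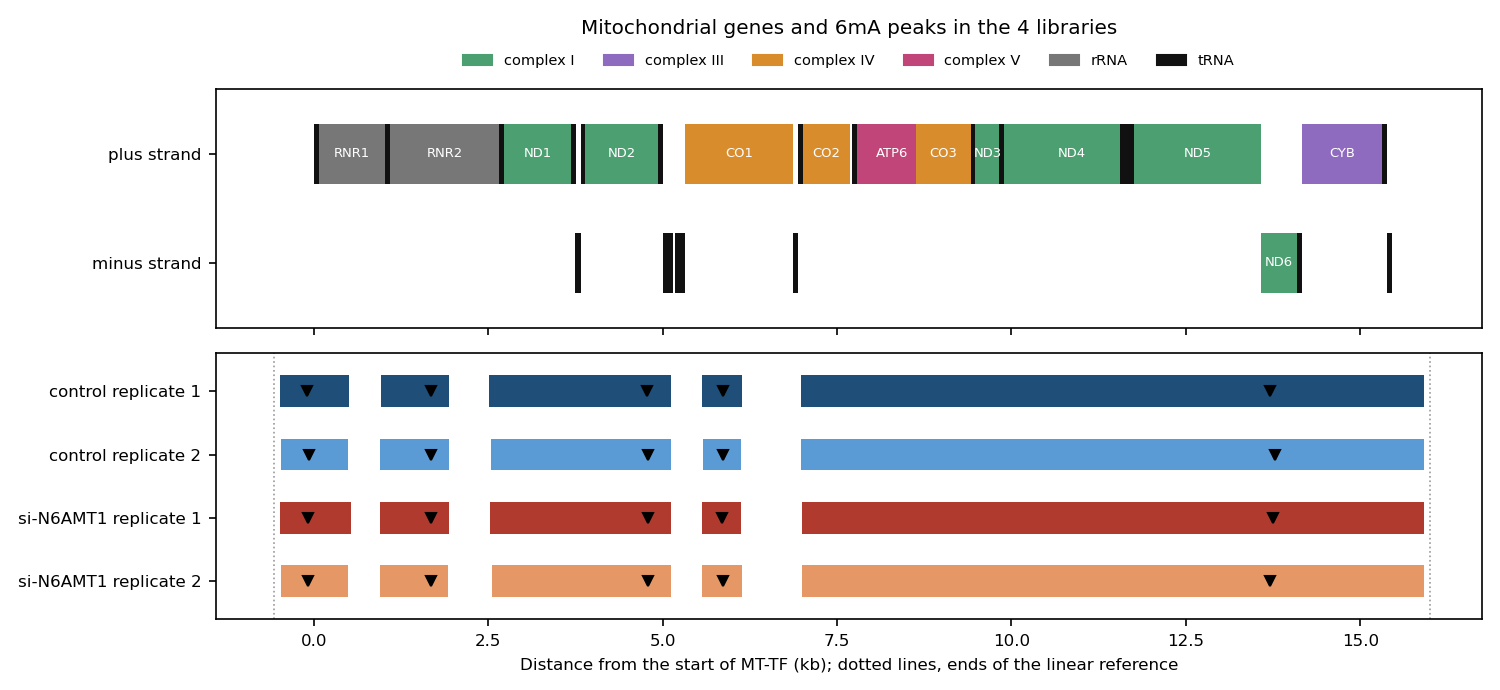
Upper panel, the 37 mitochondrial genes by strand and class against distance from the start of MT-TF (kb, x axis). Lower panel, the peaks of each library as bars with their summits as triangles. The 5 peaks and their summits stand at the same places in the 4 libraries, and the gaps fall in MT-RNR1, MT-RNR2, on either side of the peak inside MT-CO1, and at the ends of the linear reference.

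All 7 complex I genes were covered whole in every library. They are MT-ND1, MT-ND2, MT-ND3, MT-ND4, MT-ND4L, MT-ND5 and MT-ND6, together 6349 bp. MT-CYB, the only complex III gene here, and the complex V genes MT-ATP6 and MT-ATP8 were also covered whole. Of the complex IV genes, MT-CO2 and MT-CO3 were covered whole and MT-CO1, which encodes the catalytic subunit, was not. The share of MT-CO1 (chrM:5904-7445) inside a peak was 37.9% and 35.9% in the control libraries, against 36.2% and 36.6% in the si-N6AMT1 libraries. MT-CO1 was the only one of the 13 protein-coding genes with uncovered bases.

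Neither rRNA gene was covered whole. MT-RNR1 (chrM:648-1601) had 51.6% and 51.5% of its length in a peak in the control libraries, against 56.5% and 51.8% in the si-N6AMT1 libraries. MT-RNR2 (chrM:1671-3229) had 63.3% and 61.3% in control, against 62.5% and 59.5% in si-N6AMT1. The values of MT-RNR2 overlapped between the groups, whereas those of MT-RNR1 were slightly higher in si-N6AMT1, by as little as the step from 51.6% to 51.8%.

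Of the 22 tRNA genes, 17 were covered whole in every library. MT-TC (chrM:5761-5826), MT-TY (chrM:5826-5891) and MT-TS1 (chrM:7446-7514), the genes of the tRNAs for cysteine, tyrosine and a serine tRNA, had no base in a peak in any library. All 3 are annotated on the minus strand, on which 5 of 9 genes were covered whole, against 24 of 28 on the plus strand. The minus-strand genes without coverage flank MT-CO1 and share its gaps, so strand and position cannot be told apart. MT-TN, the tRNA gene for asparagine (chrM:5657-5729), held the end of a peak and was covered over 60.3% and 49.3% of its length in control, against 53.4% and 49.3% in si-N6AMT1. MT-TD, the tRNA gene for aspartate (chrM:7518-7585), held the start of the longest peak and was covered over 30.9% and 29.4% in control, against 22.1% and 19.1% in si-N6AMT1. The groups did not overlap at MT-TD, but the difference was a shift of the peak's start from positions 7565 and 7566 in control to 7571 and 7573 in si-N6AMT1, a range of 8 bp. Among the 5 mitochondrial peaks the start did not overlap between groups at 2, and the end at 0. Among the 12132 regions with a peak in all 4 libraries the groups did not overlap for 35.8% of starts and 35.8% of ends. The mean covered share over the 37 genes was 85.0% and 84.5% in control, against 84.6% and 84.2% in si-N6AMT1 (p = 0.667, exact two-sided permutation test).

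**Figure D2:**
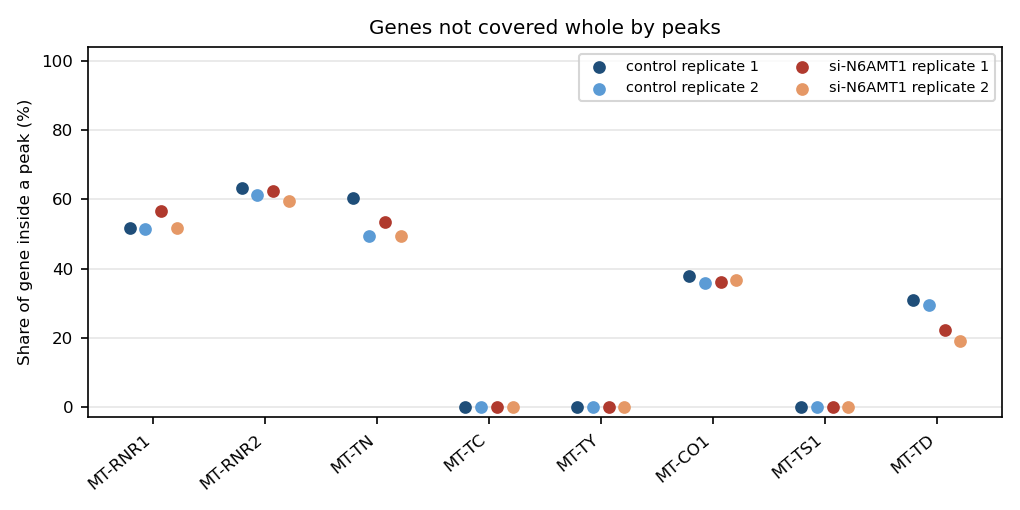
Share of each gene inside a peak (%, y axis) in the 4 libraries (points) for the 8 genes that were not covered whole. The points of MT-TC, MT-TY and MT-TS1 are at 0 in every library, and the control points of MT-TD, 30.9% and 29.4%, stand above the si-N6AMT1 points, 22.1% and 19.1%.

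The bases fell into 5 stretches covered in all 4 libraries (13943 bases, 84.2%), 6 covered in none (2433 bases, 14.7%) and 10 short ones at peak edges covered in some (193 bases, 1.16%). The 6 uncovered stretches were chrM:1-92 and chrM:16496-16569 at the ends of the linear reference, chrM:1110-1524 in MT-RNR1, chrM:2521-3092 in MT-RNR2, chrM:5701-6137 from MT-TN through MT-TC and MT-TY into MT-CO1, and chrM:6722-7564 from MT-CO1 through MT-TS1 into MT-TD. The stretches at the ends of the reference adjoin each other on the circle. The part that these ends of the linear sequence had in the missing coverage was not tested. Of the control region, 83.5% to 85.2% lay inside peaks. Over the 4 libraries a peak's start or end moved by 7 to 44 bp and a summit by 4 to 66 bp.

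The uncovered stretches held more guanine on the plus strand than the covered ones. Guanine made up 18.9% of the bases covered in none and 12.1% of those covered in all 4 libraries, against 13.1% over the whole sequence. Adenine, the base that carries 6mA, differed less, at 29.5% of uncovered and 31.2% of covered bases. Cytosine was at 27.0% and 32.1%, and thymine at 24.7% in both. Taken stretch by stretch, guanine ranged from 16.1% to 25.0% over the 6 uncovered stretches and from 11.4% to 16.5% over the 5 covered ones. The ranges touched only at the MT-RNR2 peak, with 16.5%, and at the uncovered stretches with 16.1%, in MT-CO1 to MT-TD, and 16.2%, at the end of the reference. In windows of 100 bp, the 133 covered windows held a median of 12.0 G (range 1 to 23) and the 18 uncovered ones a median of 19.0 (range 9 to 27). Of the covered windows 10 reached the median of the uncovered ones, and 1 uncovered window was at or below the median of the covered ones. Neighbouring windows lie on the same molecule and share peaks, so these are descriptions without a test.

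**Figure D3:**
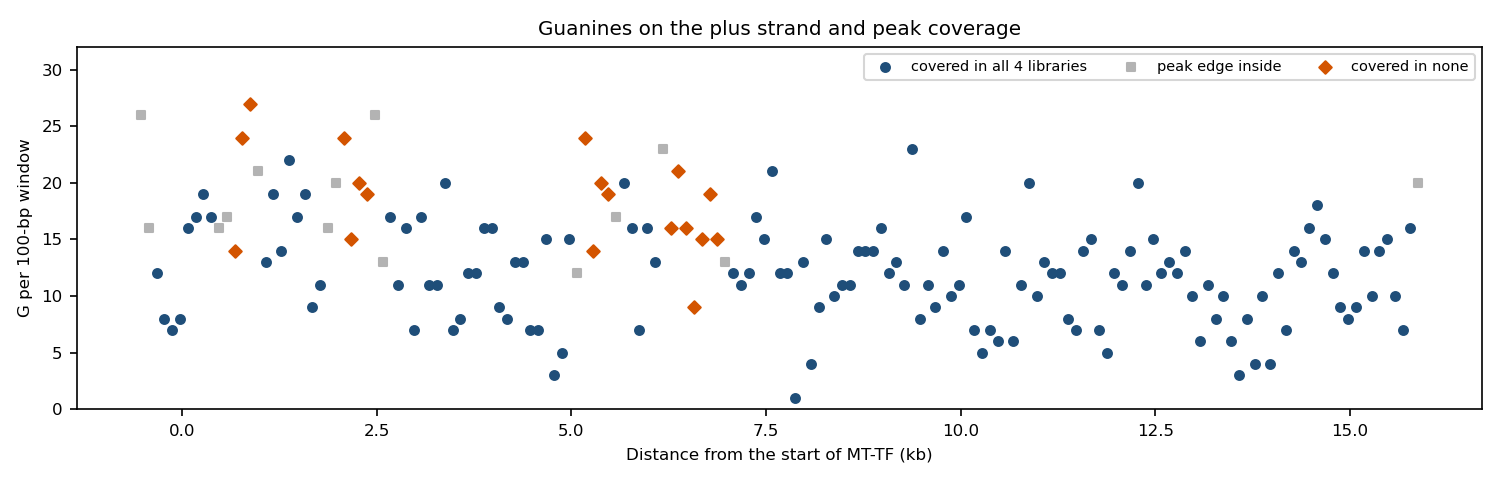
G on the plus strand per 100-bp window (y axis) against distance from the start of MT-TF (kb, x axis). Circles are windows covered in all 4 libraries, diamonds windows covered in none and squares windows with a peak edge inside. The diamonds lie at 9 to 27 G, with a median of 19.0, and the circles at 1 to 23, with a median of 12.0.

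The genes under the highest summits were among the poorest in guanine. Of the 13 protein-coding genes, MT-ATP8 held 6.28% G on the plus strand, MT-ND6 7.05% and MT-ND2 9.50%, the 3 lowest values, whereas MT-CO1 held the most, 16.2%. The rRNA genes MT-RNR1 and MT-RNR2 held 19.0% and 17.3%. Nuclear peaks showed a like asymmetry of C and G between strands. In the 100 bp around nuclear summits the rarer of C and G averaged 9.34, 9.74, 9.92 and 10.1 bases in control replicates 1 and 2 and si-N6AMT1 replicates 1 and 2, against 16.3 to 16.5 in windows 1000 bp away. Around the mitochondrial summits it averaged 5.80, 5.40, 5.60 and 6.20, each of the 20 values lying between 3 and 8. At nuclear summits the commoner of A and T also differed, averaging 48.3 to 48.6 bases against 36.2 to 36.5 in windows 1000 bp away. On the mitochondrial genome A and T differed little between covered and uncovered bases, but that is not a like measure. The commoner of A and T was not computed at mitochondrial summits, so a likeness was seen for C and G and not tested for A and T. The letters CAGGCTGG, searched on both strands, did not occur in the mitochondrial sequence, against 0.454 matches per kb over the nuclear chromosomes. The letters CAGG within that motif occurred 111 times on either strand, or 6.70 per kb, with 6.45 per kb in covered and 8.22 per kb in uncovered stretches and 11.1 per kb over the nuclear chromosomes. Whether composition, through the antibody, the library or the alignment, had a part in the coverage was not tested.

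The peaks are numbered here along the reference. The fold of a peak is the pileup of fragments at its summit over the local background, with 1 added to each. Peak 5 ran from MT-TD to the control region, covered 20 genes whole or in part and had its summit in MT-ND6 in every library. It was 8931 and 8924 bp wide in control, against 8918 and 8919 bp in si-N6AMT1. Its fold was 20.8 and 13.9 in the control libraries, against 14.8 and 13.7 in the si-N6AMT1 libraries. Peak 3 ran from MT-RNR2 to MT-TN with its summit in MT-ND2, and its fold was 17.7 and 13.1 in control, against 13.1 and 12.6 in si-N6AMT1. These values bear on the genes inside peaks 3 and 5 only through their shared summit, since no value within a peak is given for the other genes.

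Peak 1 spanned the control region, MT-TF and part of MT-RNR1, with its summit in the control region. Its fold was 7.10 and 5.22 in control, against 5.32 and 5.10 in si-N6AMT1. Peak 4, inside MT-CO1, had a fold of 4.25 and 3.54 in control, against 3.84 and 3.65 in si-N6AMT1. Peak 2, from MT-RNR1 across MT-TV into MT-RNR2 with its summit in MT-RNR2, had the lowest fold, 3.43 and 2.89 in control, against 3.23 and 2.87 in si-N6AMT1. The order of the 5 folds was the same in every library.

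Ranked by fold among all peaks of a library, the mitochondrial peaks stood at both ends of the list. Peak 5 ranked 98 of 30451 peaks in control replicate 1, 676 of 33410 in control replicate 2, 601 of 38847 in si-N6AMT1 replicate 1 and 631 of 40844 in si-N6AMT1 replicate 2. Peak 2, in contrast, ranked 30440, 33408, 38832 and 40840 in the same lists, close to the last place. Ranked by −log10 q or by pileup, the 5 mitochondrial peaks took the first 5 places in each list. Peak 2 held 4347 and 4765 fragments at its summit in control, against 4183 and 4026 in si-N6AMT1, while the highest nuclear pileup was 315 to 476 fragments. The local background of peak 2 was 1266 and 1647 fragments in control, against 1296 and 1401 in si-N6AMT1, whereas the genome-wide background was 1.05 to 1.53. The low fold of peak 2 stood on counts far above those of any nuclear peak. Removal of duplicate reads by the authors caps identical fragments and acts most where fragments are densest.

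The pileup at all 5 mitochondrial summits was lower in si-N6AMT1 than in control, in fragments and after scaling for depth, but the fold was not separated in the same way. In fragments, the pileup of peak 5 was 25521 and 22981 in control, against 19926 and 19649 in si-N6AMT1. That of peak 3 was 15608 and 15090 in control, against 12432 and 12905 in si-N6AMT1. Peak 1 had 6149 and 5911 against 4971 and 5122, and peak 4 had 4771 and 5165 against 4511 and 4595. The groups did not overlap at any of the 5 peaks, although the lowest control value was only 1.04 times the highest si-N6AMT1 value at peaks 2 and 4.

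The libraries differed in depth, and the si-N6AMT1 libraries were the deeper ones. The genome-wide background, which rises with the number of fragments, was 1.05 and 1.36 in control, against 1.41 and 1.53 in si-N6AMT1. Of all 72537 merged regions, 12132 (16.7%) were called in all 4 libraries, and their pileups serve as the comparison. In fragments, both control values exceeded both si-N6AMT1 values in 5 of 5 mitochondrial regions and in 5.74% of the 12132 regions, and the opposite order held in 30.0%. The 5 mitochondrial peaks lie on the same molecule and in the same 4 libraries. Here and below, 5 of 5 is therefore not a count of independent results. The log2 ratio of si-N6AMT1 to control was −0.26, −0.15, −0.28, −0.13 and −0.29 for peaks 1 to 5, against a median of 0.15 over all regions. Relative to that median the log2 ratios of the mitochondrial peaks were −0.41, −0.30, −0.43, −0.28 and −0.45. Their log2 ratios stood above 4.92% (peak 5) to 15.3% (peak 4) of the ratios of all regions, within the spread of nuclear regions. That spread is not a like measure, since shared nuclear regions held a median of 21 to 24 fragments and mitochondrial summits at least 4026. The ratios and the order of nuclear regions therefore hold more counting noise.

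Divided by the genome-wide background, the pileup of peak 5 was 24346 and 16858 in control, against 14090 and 12864 in si-N6AMT1. On this scale the same order held at 5 of 5 mitochondrial peaks and in 27.9% of regions. The log2 ratios were −0.57, −0.45, −0.59, −0.43 and −0.61 against a median of −0.15. As a geometric mean over the 5 peaks the scaled pileup was 8331 and 6398 in control, against 5281 and 4922 in si-N6AMT1, or 7364 ± 1367 against 5102 ± 254 (SD, n = 2). The log2 difference was −0.53 with p = 0.333 in the exact two-sided permutation test, its smallest possible value. It was −0.33 without control replicate 1, −0.38 when scaled by the median pileup of nuclear regions shared by the 4 libraries, and −0.22 in fragments. In bulk DNA, fewer mitochondrial genomes per cell and less modification per genome cannot be told apart from the pileup.

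The fold, which sets the pileup against the local background, had both control values above both si-N6AMT1 values at 1 of 5 mitochondrial peaks and in 24.3% of regions. That peak was peak 3, where the lowest control fold was 1.01 times the highest si-N6AMT1 fold. Its geometric mean was 8.24 and 6.28 in control, against 6.62 and 6.21 in si-N6AMT1. The log2 difference of −0.18 was smaller than the gap between the control libraries (p = 0.667, exact two-sided permutation test). Without control replicate 1 the log2 difference was 0.03, so its direction rested on that library.

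The local background at the mitochondrial summits was lower in si-N6AMT1 after scaling for depth, but not in fragments. In fragments the groups overlapped, with 865 and 1131 at peak 1 in control, against 933 and 1004 in si-N6AMT1, and the log2 difference of the geometric mean was −0.07. Divided by the genome-wide background, with a log2 difference of −0.35, it was 826 and 830 at peak 1 in control, against 660 and 657 in si-N6AMT1, and at peak 2 it was 1208 and 1208 in control against 916 and 917. At peak 3 it was 842 and 842 against 672 and 669, at peak 4 1070 and 1068 against 830 and 824, and at peak 5 1169 and 1214 against 954 and 939. The same order held at 5 of 5 mitochondrial peaks and in 33.8% of regions, with the opposite order in 41.8%. The log2 ratios ran from −0.40 to −0.33 against a median of 0.00 over all regions. These values do not count as replicated. At summits that 2 libraries had at the same base and where the local background exceeded 1.1 times the genome-wide level in either, the scaled background of the control libraries matched within 2% for 91.8% of 196 summits, and that of the si-N6AMT1 libraries for 98.3% of 240. Across groups it matched for 3.54% of 113 and 7.61% of 92 summits. The libraries of a group therefore behaved as if they had been set against the same input, and the group difference in background is a difference between 1 input and 1 input, with no test. The folds of a group then share that input as well. The SDs and p-values of folds, above and below, therefore do not measure the spread between inputs.

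**Figure D4:**
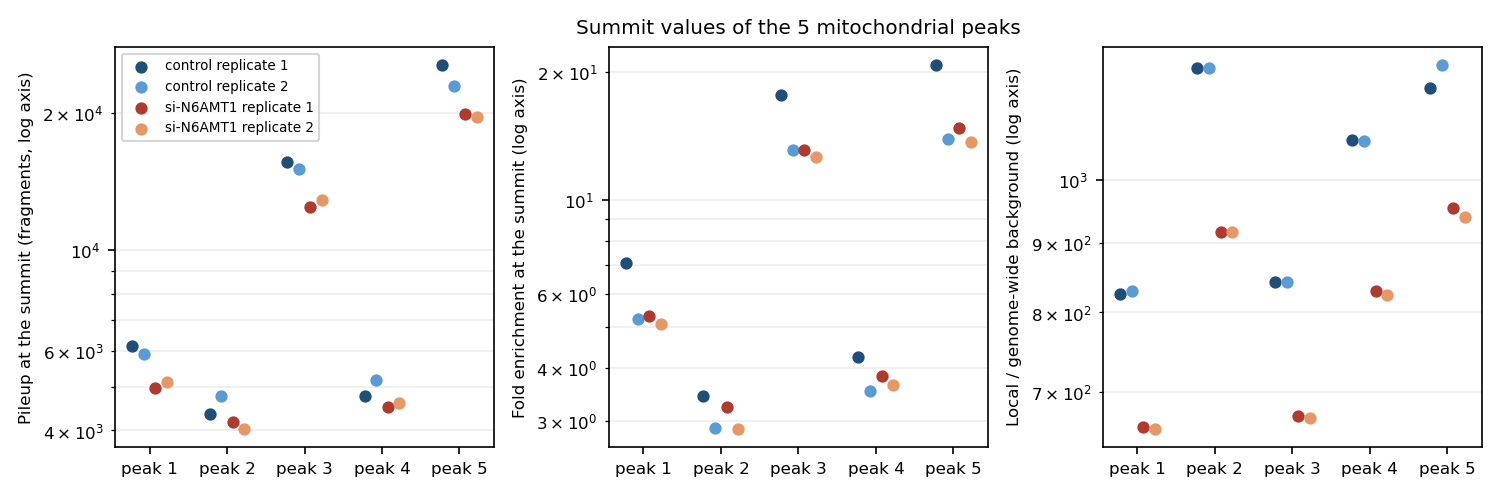
Summit values of the 5 mitochondrial peaks in the 4 libraries (points, log axes). Shown are the pileup in fragments (left), the fold enrichment (centre) and the local background divided by the genome-wide background (right). The control points lie above the si-N6AMT1 points at every peak on the left and on the right, and in the centre only at peak 3, with control folds of 17.7 and 13.1 and si-N6AMT1 folds of 13.1 and 12.6.

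Copies of mitochondrial DNA in the nuclear chromosomes show the same genes in another setting, without the high copy number of the mitochondrial genome. The annotation held 405 nuclear pseudogenes of mitochondrial protein-coding genes with a median length of 678 bp. A peak touched 36 and 45 of them in the control libraries, against 45 and 46 in the si-N6AMT1 libraries, and 24 (5.93%) in all 4. Of nuclear protein-coding genes, which are far longer with a median of 27219 bp, 20.4% had a peak in all 4. No share was computed for nuclear genes of like length, so these counts cannot be called high or low. Pseudogenes of MT-ND6, the gene under the summit of peak 5, were the largest group among the 24. Those of MT-ND2, the gene under the summit of peak 3, were not, with a peak in all 4 libraries at 1 of 34 (2.94%). Of 28 MT-ND6 pseudogenes, 10 (35.7%) had a peak in all 4 libraries and 11 more in 1 to 3 libraries, and the summit lay inside the pseudogene in all 4 libraries for 6. Of 38 MT-ND5 pseudogenes 6 (15.8%) had a peak in all 4, and of 35 MT-ND4 pseudogenes 2 (5.71%). Of 48 MT-CO1 pseudogenes 0 had a peak in all 4 libraries and 1 had a peak in any. MT-ND1, MT-CO3, MT-ND3 and MT-ND4L had no pseudogene with a peak in all 4. The split by parent gene was made after the pseudogene counts were known, and pseudogenes that lie end to end can share a peak, so it carries no test.

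**Figure D5:**
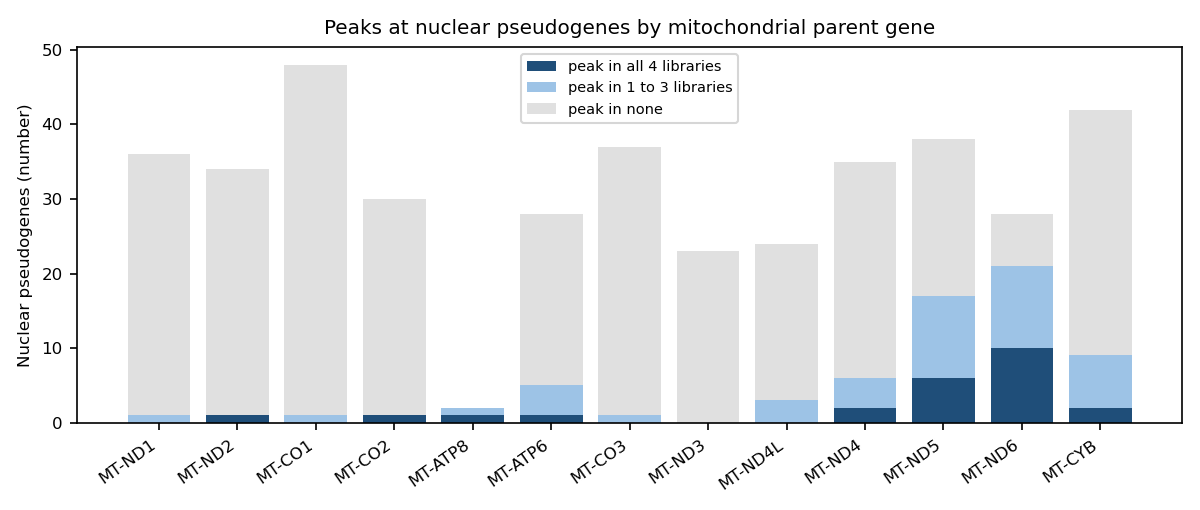
Number of nuclear pseudogenes (y axis) of each mitochondrial protein-coding gene, split by whether a peak touched them in all 4 libraries, in 1 to 3 or in none. MT-ND6 has the most with a peak in all 4, 10 of 28, followed by MT-ND5 with 6 of 38, while MT-CO1 has 0 of 48.

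The MT-ND6 pseudogenes with a peak in all 4 libraries were MTND6P3, MTND6P4, MTND6P5, MTND6P12, MTND6P14, MTND6P15, MTND6P16, MTND6P18, MTND6P22 and MTND6P25, with folds between 4.65 and 14.4. MTND6P4, on chromosome 5 at 134259813-134260334, had a fold of 11.8 and 14.4 in control, against 8.66 and 8.97 in si-N6AMT1. MTND6P22, on the same chromosome at 99382154-99382674, had 8.96 and 8.25 in control, against 13.7 and 9.10 in si-N6AMT1, the opposite order. The neighbouring MTND5P11 and MTND5P10 carried the same peaks as these. MT-ND6 pseudogenes with a peak in 2 or 3 libraries were MTND6P2, MTND6P6, MTND6P7, MTND6P8, MTND6P9, MTND6P11, MTND6P21 and MTND6P24. The other MT-ND5 pseudogenes with a peak in at least 2 libraries were MTND5P1, MTND5P2, MTND5P7, MTND5P8, MTND5P12, MTND5P13, MTND5P16, MTND5P18, MTND5P19, MTND5P24, MTND5P27 and MTND5P35. The remaining pseudogenes in at least 2 libraries were MTND4P12, MTND4P15, MTND4P31, MTND4P35, MTND4LP30, MTND2P13, MTCYBP22, MTCYBP35, MTATP6P1, MTATP6P2, MTATP6P8, MTATP8P1, MTCO2P12 and MTCO3P22. The peaks merged into 42 regions that touched a pseudogene, of which 16 were called in all 4 libraries with summit pileups of 10 to 36 fragments. Both control folds exceeded both si-N6AMT1 folds in 3 of the 16 (24.3% of all regions) and the reverse held in 4 (16.9% of all regions). For the pileup over the genome-wide background these counts were 5 (27.9% of all regions) and 1 (7.28%).

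The copy most like the mitochondrial genome lies on chromosome 1 (chr1:564461-570304), where 5846 aligned bases were 98.5% identical to chrM:3911-9755. Each library had a peak in it, which touched MTCO2P12, MTATP8P1 and MTATP6P1 and matched chrM:7989-8657 at its widest, from MT-CO2 to MT-ATP6 inside peak 5. Its fold was 14.0 and 11.2 in control, against 5.53 and 6.74 in si-N6AMT1, or 12.6 ± 1.96 against 6.13 ± 0.852 (SD, n = 2). The groups did not overlap, and the log2 ratio of −1.04 was below that of all but 0.157% of regions. The test gave p = 0.333, its smallest value (exact two-sided permutation test). The pileup was 31 and 32 fragments in control, against 21 and 22 in si-N6AMT1, a log2 ratio of −0.55. The local background moved the other way, at 1.23 and 1.43 times the genome-wide level in control, against 2.11 and 1.58 in si-N6AMT1 (log2 ratio 0.47), and it too is not replicated within a group. This region was singled out for its sequence, and reads from the mitochondrial genome can align to so similar a copy, a part that was not tested. The uncovered mitochondrial stretches that this copy contains were the most like it. Identity was 99.3% over chrM:5701-6137 and 99.2% over chrM:6722-7564, whereas the covered stretches chrM:3911-5692, chrM:6151-6703 and chrM:7573-9755 were 98.7%, 97.5% and 98.3% identical. Over the whole mitochondrial sequence, 74.2% of the uncovered and 47.1% of the covered bases had a nuclear copy of at least 95% identity. Stretch by stretch these shares overlapped, at 0% to 100% of the uncovered and 30.3% to 100% of the covered stretches, and the lowest covered value was that of the longest stretch, under peak 5. How the alignment placed reads that fit both places is not given in the sources used here, and its part in the gaps was not tested.

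Most subunits of the respiratory chain are encoded by nuclear genes, and these carried few peaks. Of 78 nuclear genes for subunits of oxidative phosphorylation, 9 and 11 had a peak in the control libraries, against 12 and 10 in the si-N6AMT1 libraries (p = 0.667, exact two-sided permutation test). Peaks in all 4 libraries were present in 3 of the 78 (3.85%), against 20.4% of 20163 nuclear protein-coding genes. The listed genes are short, with a median length of 12604 bp against 27219 bp, and shorter genes have less room for a peak. Counted per Mb of gene, they held 5.93 and 8.57 peaks in control, against 10.5 and 7.25 in si-N6AMT1, while all nuclear protein-coding genes held 10.3 and 11.2 in control, against 13.1 and 13.5. The 3 genes were NDUFA10, a complex I subunit, with folds of 13.2 and 12.3 in control, against 12.0 and 11.1 in si-N6AMT1, and the ATP synthase subunits ATP5MC2 and ATP5MJ. Where a gene held more than 1 peak in a library, the fold is the highest there. ATP5MC2 had folds of 4.58 and 6.34 in control, against 7.80 and 5.98 in si-N6AMT1. ATP5MJ had 6.82 and 6.26 in control, against 6.66 and 7.34 in si-N6AMT1.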

How the data were processed

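6mA-IP-seq peak lists of 4 immunoprecipitated libraries were used, 2 control and 2 si-N6AMT1. The 2 input libraries entered only through the authors' peak calls, and the input set against each library is not given in the sources used here. According to the study's methods, reads were trimmed with Solexa pipeline software and reads of low quality were filtered out with Trimmomatic. The remaining reads were aligned to hg19 with Bowtie2 (2.3.5, per the submitters' processing notes), and duplicates were removed with SAMtools (1.9). Peaks were called per library with MACS2 at a p-value of 1e-05. The deposited fold enrichment is the ratio of summit pileup to local background, with 1 added to each. The −log10 p and −log10 q that the authors deposited describe the summit. The score deposited by the authors is 10 times the −log10 p cut to a whole number (99.997% of peaks).

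Fold and −log10 p together fix the pileup and the local background of a summit. Pileups came out whole within 0.02 for 100% of peaks, and the recovery was tested on simulated data. The lowest background of a list was taken as its genome-wide level. Depth is known only through it, and with a median pileup of 17 to 19 fragments nuclear peaks rest on few fragments. Mitochondrial summits rest on at least 4026 fragments, so the number of replicates limits precision. Overlapping peaks (at least 1 bp) were merged. Genes came from GENCODE lifted to GRCh37, whose sequence was used for hg19, and nuclear copies from blastn 2.17.0 (matches of at least 300 bp for counts). Groups came from sample titles. Sequence was read with samtools 1.23.1 and pysam 0.24.0, and tables with pandas 2.3.3 and numpy 2.4.6 in Python 3.11.15. Permutation tests were computed with numpy, scipy 1.17.1 served the recovery of pileups, and plots were drawn with matplotlib 3.10.9.

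Groups were compared by permuting the library labels exactly (two-sided, 6 assignments, smallest p 0.333). Named were all protein-coding and rRNA genes, tRNA genes not covered whole, genes under summits, up to 5 genes per nuclear list with peaks in all 4 libraries by their lowest fold, and pseudogenes with peaks in at least 2 libraries. Members and lists were chosen with earlier results of these data known. Alternatives tried were a stricter −log10 q (at least 5), other shares of a gene, shifted gene positions, other scales for depth, 5000 bp flanks, 50% overlap, a fit with replicate block, and each library left out in turn.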

Additional observations from a re-analysis of the deposited data

How the results depend on the processing

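Of 58 recomputed values, 4 changed direction. Several of the others differed much in size, as given below. No setting could change the outcome of a test, since the smallest possible p was 0.333 by permutation and 0.5 by sign flips. Values with a library left out carry no test. Leaving out each library in turn gave a covered length difference of −0.383 to 0.178 percentage points against −0.103, a fold difference of −0.36 to 0.03 (log2) against −0.18, and 0 to 2.00 more nuclear oxidative phosphorylation genes with a peak against 1.00. The covered length difference was above 0 without control replicate 1 (0.172) and without si-N6AMT1 replicate 2 (0.178). The log2 difference in scaled pileup ran from −0.71 to −0.33 in the same way, and was −0.22 with no scaling and −0.38 with the median of shared nuclear regions as scale, against −0.53. The local background differed by −0.07 with no scaling, against −0.35. The nuclear oxidative phosphorylation count differed by 3 with 5000 bp flanks. Without the 22 tRNA genes the mean covered share differed by 0.0589 points in place of −0.327, since MT-TN and MT-TD then drop out. The share of regions with both control pileups above both si-N6AMT1 pileups was 27.9% with the genome-wide background as scale, 17.7% with the median pileup of shared nuclear regions and 5.74% with no scaling. With 5000 bp on either side, the mean number of pseudogenes with a peak was 122 in place of 43.0. The number of members covered whole was 29 in each library after shifts of 1 or 2 bases and at a −log10 q of at least 5, 31 or 32 at a share of at least 50%, and 34 at 1 base or more.

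Under a replicate block, the scaled pileup differed by −0.52 and the fold by −0.17 on the log2 scale. An exact test by sign flips gave p = 0.5 for both, and 2 pairs allow no smaller p. The numbers do not pair the libraries, as the correlation of deviations between same-numbered libraries was 0.022 over 12132 regions.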

Other observations

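Nuclear genes whose products copy, package or transcribe the mitochondrial genome, or process and bind its RNA, differed in coverage between libraries. Of 27 such genes, 3 and 7 had a peak in the control libraries, against 10 and 4 in the si-N6AMT1 libraries, so the libraries of a group differed more than the groups. Peaks in all 4 libraries were present in 3 (11.1%), against 20.4% of nuclear protein-coding genes. Counted per Mb of gene the order was the opposite, with 15.0 and 16.7 peaks in control, against 27.3 and 15.0 in si-N6AMT1, while all nuclear protein-coding genes held 10.3 and 11.2 in control, against 13.1 and 13.5. Most of these peaks of the list lay in MTERF1 and PRORP, which are long genes. MTERF1 held 11 and 10 peaks in control, against 11 and 8 in si-N6AMT1. PRORP held 5 and 4 in control, against 11 and 7. Of the 27 genes, 16 had no peak in any library, so the density is not a trait of the list as a whole. The folds that follow are the highest in each gene and library, and in PRORP and MTERF1, which held several peaks, they were not matched to the same peak across libraries. PRORP, the protein-only ribonuclease that trims mitochondrial tRNA precursors, had folds of 16.6 and 16.2 in control, against 14.1 and 10.2 in si-N6AMT1. MTERF1, a factor that binds mitochondrial DNA and ends transcription, had 12.5 and 10.6 in control, against 12.8 and 11.2 in si-N6AMT1. FASTKD2, an RNA-binding protein of mitochondria, had 10.3 and 6.35 in control, against 7.46 and 6.73 in si-N6AMT1.

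Among 3 genes of enzymes linked to adenine methylation, N6AMT1 itself carried a peak in every library, with folds of 19.9 and 17.1 in control, against 19.5 and 20.2 in si-N6AMT1. METTL4 had a peak in 3 libraries, with a fold of 6.84 in control replicate 1 and 6.21 and 7.52 in si-N6AMT1, and ALKBH1 had none in any.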
